A study of Mus musculus with 3 samples.

Results

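Mural cells are the pericytes of capillaries and the smooth muscle cells of larger vessels, and they were selected here from single-cell RNA profiles of mouse flexor digitorum longus (FDL) tendon. After barcodes with 1000 to 5000 genes and at most 10% mitochondrial UMIs (unique molecular identifiers, each counting 1 RNA molecule) had been kept, a cell was a member if it held at least 4 UMIs summed over Rgs5, Myh11 and Notch3, at least 5 over Acta2, Tagln and Myl9, at most 3 over the endothelial genes Pecam1, Cdh5 and Cldn5, at most 3 over the macrophage genes C1qa, C1qb and C1qc, and under 10 over the tenocyte genes Tnmd, Fmod, Kera and Cilp2. The rule found 374 mural cells among 19709 kept cells. It was written for mural cells, so the levels of these 16 genes describe the selection and are not results.

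Each group was 1 library made from 16 pooled FDL tendons. The 6 M DTR mice were Scx-Cre+; DTR F/+ and the 6 M WT mice were Scx-Cre-; DTR F/+, both on C57BL/6J and both given 5 daily injections of diphtheria toxin (DT). The 21 M B6 mice were C57/Bl6 animals without DT. In the DTR mice, Cre driven by Scleraxis turns on the DT receptor in Scleraxis-lineage cells, so the toxin removes those tendon cells, and the receptor allele without Cre is shared by the WT mice. By the labels the WT and DTR mice were 3 months old, which the study's methods give as the age at the toxin, with harvest at 6 months. The DT-treated groups differ from the 21 M B6 group in toxin, allele and age, and digestion lasted 2 h for WT and 1.5 h for DTR and B6, so these factors cannot be told apart between the libraries.

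Pericytes sit in the basement membrane of capillaries and small venules and touch the endothelium directly, while vascular smooth muscle cells form the contractile coat of arterioles and veins. Their tone is set by calcium entry, which activates myosin light chain kinase, and is lowered by nitric oxide through soluble guanylate cyclase and cyclic GMP. Pericytes carry ATP-sensitive potassium channels and the receptor for platelet-derived growth factor, and Notch3 signalling from the endothelium maintains the smooth muscle state.

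Contractile genes are known targets of serum response factor, which binds the CArG box, and the promoters of 3 genes the results return to are shown with that motif in capitals. The windows run from 250 bases before to 50 bases after the transcript start and come from RefSeq on GRCm38.p6. Myl9 encodes a regulatory myosin light chain and lies at chr2:156775214-156775513, plus strand. Myl6 encodes an essential myosin light chain, with the window of 1 of its 2 starts at chr10:128492960-128493259, minus strand. Acta2 encodes smooth muscle actin, at chr19:34255324-34255623, minus strand.
Myl9: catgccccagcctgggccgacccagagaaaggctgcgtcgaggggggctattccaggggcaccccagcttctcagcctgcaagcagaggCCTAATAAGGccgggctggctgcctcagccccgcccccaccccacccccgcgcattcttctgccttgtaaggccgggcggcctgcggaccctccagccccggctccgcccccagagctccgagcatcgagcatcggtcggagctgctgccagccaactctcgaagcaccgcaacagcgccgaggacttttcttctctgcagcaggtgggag
Myl6: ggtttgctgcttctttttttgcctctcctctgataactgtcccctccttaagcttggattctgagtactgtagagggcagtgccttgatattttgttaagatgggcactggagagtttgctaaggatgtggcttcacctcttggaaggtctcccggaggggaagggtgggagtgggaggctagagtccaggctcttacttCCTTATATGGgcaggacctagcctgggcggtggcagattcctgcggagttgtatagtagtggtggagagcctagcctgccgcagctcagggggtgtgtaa
Acta2: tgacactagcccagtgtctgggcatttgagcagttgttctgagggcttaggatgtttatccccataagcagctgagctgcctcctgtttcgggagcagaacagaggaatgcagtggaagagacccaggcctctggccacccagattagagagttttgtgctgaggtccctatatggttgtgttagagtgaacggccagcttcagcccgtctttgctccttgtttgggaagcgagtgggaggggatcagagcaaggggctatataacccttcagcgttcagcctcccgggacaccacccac
An exact CArG box (CC, then only A or T, then GG) was present in the Myl9 and Myl6 windows and not in that of Acta2. The Acta2 window holds the near matches ccctatatgg and ccttgtttgg, which the exact pattern does not cover. An exact box was present in 3 of the 24 matched genes of a contractile apparatus list (12.5%) and in 488 of 27025 genes in all (1.81%). The 3 were Filip1l, Ldb3 and Myl6, and Myl9 is a gene of the rule that this list does not hold. The motif is its own reverse complement, so both strands were covered, and a match describes the sequence and is not evidence of binding.

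Mural cells made up 137 of 8357 kept cells in 6 M WT (1.64%, exact 95% binomial interval 1.38 to 1.94), 188 of 6554 in 6 M DTR (2.87%, 2.48 to 3.30) and 49 of 4798 in 21 M B6 (1.02%, 0.757 to 1.35). The 3 intervals did not overlap, but they cover counting error only, and with 1 library in each group no difference between groups could be tested. The order of the libraries was the same under 2 other denominators, but the distance between them was not. Tenocyte-marker cells were 63.4% of kept cells in WT, 42.3% in DTR and 20.9% in B6, and without them the mural share was 4.48% in WT (3.77 to 5.27) and 4.97% in DTR (4.30 to 5.72), with overlapping intervals, and 1.29% in B6 (0.956 to 1.70). Against cells carrying endothelial markers there were 1.01 mural cells per endothelial cell in WT, 1.44 in DTR and 0.620 in B6. With no contractile minimum in the rule, mural cells were 2.48% of kept cells in WT (2.15 to 2.83), 4.04% in DTR (3.58 to 4.55) and 2.48% in B6 (2.06 to 2.96). B6 was then level with WT. At a mitochondrial limit of 5% the shares were 0.559% in WT, 1.39% in DTR and 0.388% in B6.

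The limit on endothelial UMIs removed a different share of barcodes in each library. Of the barcodes that met both mural minima, 35 of 200 in WT (17.5%, 12.5 to 23.5), 21 of 227 in DTR (9.25%, 5.82 to 13.8) and 76 of 125 in B6 (60.8%, 51.7 to 69.4) held more than 3 endothelial UMIs. These barcodes had a median of 19483, 16000 and 15145.5 UMIs, with median endothelial UMIs of 28, 25 and 30 and median Rgs5 UMIs of 103, 100 and 86.5, and in 73 of the 76 in B6 Rgs5 exceeded Myh11. They therefore carried RNA of both cell types, and their raw Rgs5 UMIs exceeded the members' medians of 47, 69 and 17. Members were shallower, with medians of 8836, 8019.5 and 9374 UMIs, and this comparison is not corrected for depth. With this limit dropped, mural cells were 2.03% of kept cells in WT (1.74 to 2.36), 3.19% in DTR (2.78 to 3.64) and 2.56% in B6 (2.14 to 3.05), so that B6 lay between WT and DTR and its interval overlapped both. Doublets were not called, and whether these barcodes hold 2 cells, attached pericyte and endothelial pairs or free RNA was not tested.

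**Figure D1:**
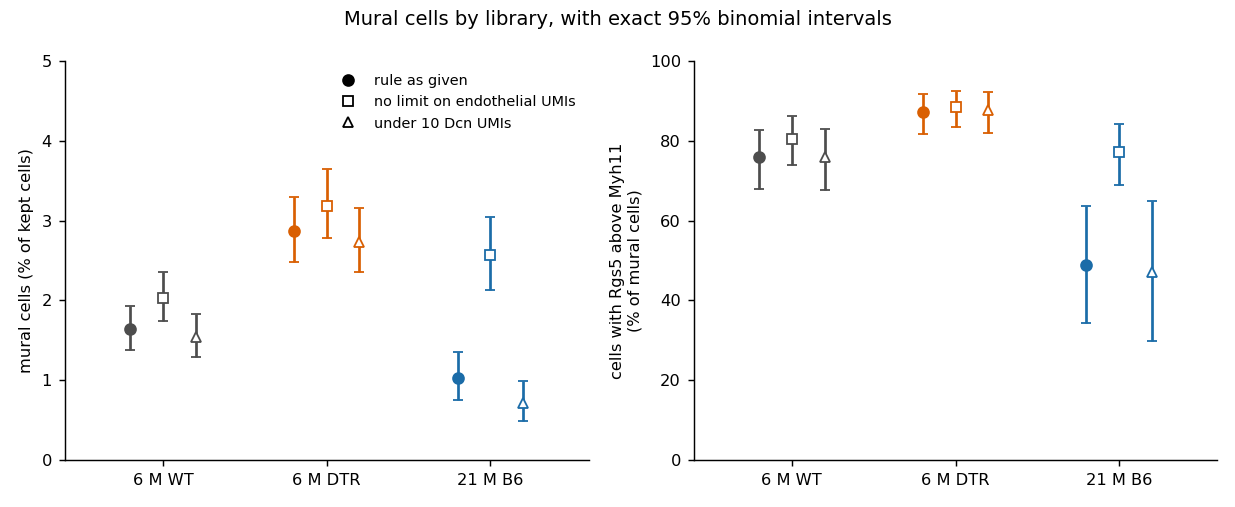
Mural cells as a percentage of kept cells (left panel, %) and mural cells with more Rgs5 than Myh11 UMIs as a percentage of mural cells (right panel, %) in each library, with exact 95% binomial intervals as bars. Filled circles follow the rule as given, squares drop the limit on endothelial UMIs and triangles keep only cells with under 10 Dcn UMIs. The 21 M B6 library moves from the lowest share, 1.02%, to 2.56% without the endothelial limit.

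Of 9 further mural markers that the rule did not use, 92.0% of members in WT, 94.2% in DTR and 81.6% in B6 held at least 3. In B6, 2 members held none. This count was not made in other cells. Pdgfrb UMIs were in 55.7, 62.5 and 63.9% of tenocyte-marker cells of WT, DTR and B6. Mcam UMIs were in 61.8, 48.9 and 44.3% of endothelial-marker cells. In both classes Kcnj8, Abcc9, Higd1b, Cnn1 and Lmod1 UMIs were in at most 1.27% of cells and Des UMIs in at most 7.6%. As a description of the selection, Rgs5 reached 7240 CPM (UMIs of a gene per 1000000 UMIs) in WT, 9786 in DTR and 2418 in B6 when the UMIs of all mural cells of a library were summed, against 68.7 in the other kept cells of WT. In cells carrying endothelial markers it was 8.24, 12.7 and 38.9 CPM. Few cells sat at the limits: 1, 2 and 1 members in WT, DTR and B6 had exactly 4 UMIs of the first gene group, and 0, 2 and 4 other cells missed the rule with 3. For the contractile group, 3, 5 and 0 members had exactly 5 UMIs, and 2, 4 and 1 cells were outside with 4.

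Members were shallower than the rest of their libraries, with a median of 8836 UMIs in WT, 8019.5 in DTR and 9374 in B6 against 13008, 12328 and 12914 over all kept cells. Their median mitochondrial percentage was also higher, at 5.69, 5.38 and 6.68 against 2.83, 3.00 and 5.09. The summed mural cells held 1191575 UMIs in WT, 1695830 in DTR and 556313 in B6, so B6 values are the least precise. Kept barcodes shared between pairs of libraries numbered 15, 14 and 13, and none of them was a mural cell in both. By Xist and Y-linked UMIs, 95 members were female and 28 male in WT, 54 and 109 in DTR, and 16 and 25 in B6, so the sex makeup also differed between the libraries.

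RNA of other cells was unevenly spread. Dcn (decorin, the main proteoglycan of tendon fibroblasts) reached 10 or more UMIs in 8 of 137 members in WT (5.84%), 9 of 188 in DTR (4.79%) and 15 of 49 in B6 (30.6%), and these cells had a median of 16381 UMIs in B6 against 8644.5 in the other B6 members. A list of 9 epitenon markers summed to 275 CPM in WT, 865 in DTR and 1407 in B6, with Ccn3 the most abundant in each and Efemp1 and Dpp4 at 0 in WT. In other kept cells the same list stood at 1792, 1765 and 3310 CPM. A list of 13 tenocyte markers summed to 1012, 1310 and 1632 CPM, led by Col1a1, with Kera at 0 in WT and B6. Macrophage markers were near 0, at 44.5, 86.1 and 53.9 CPM over 11 genes led by Lyz2, with Tyrobp at 0 in WT and Ptprc and Mrc1 at 0 in B6. A list of 15 endothelial markers, which the rule limited in part, summed to 657, 616 and 715 CPM and was led by Fabp4 in WT and B6 and by Flt1 in DTR, with Cldn5 and Tie1 at 0 in DTR and Cdh5, Vwf and Selp at 0 in B6. A list of 8 Schwann cell markers was at 9.23 CPM in WT, 123 in DTR and 70.1 in B6, and 8 T cell markers were at 5.04, 16.5 and 1.80 CPM. List counts for B6 are therefore given with all members and with those under 10 Dcn UMIs. In this second setting 2.2% of all genes were higher and 9.37% lower in B6 than in WT, and values without a remark are over all members.

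Members were split by whether Rgs5 or Myh11 had more UMIs. Rgs5 encodes a regulator of G protein signalling that is highest in pericytes, and Myh11 encodes the myosin heavy chain of smooth muscle. Rgs5 exceeded Myh11 in 104 of 137 cells in WT (75.9%, 67.9 to 82.8), 164 of 188 in DTR (87.2%, 81.6 to 91.7) and 24 of 49 in B6 (49.0%, 34.4 to 63.7). Counted over kept cells, the Rgs5 subset was 1.24% in WT, 2.50% in DTR and 0.500% in B6, whereas the Myh11 subset was 0.395%, 0.366% and 0.521%, with overlapping intervals. The intervals of the Rgs5 subset did not overlap (1.02 to 1.51, 2.14 to 2.91 and 0.321 to 0.743). Without the endothelial limit, Rgs5 exceeded Myh11 in 77.2% of the B6 cells. The B6 share was 66.4% with no contractile minimum, and 77.8% of 9 cells at a mitochondrial limit of 5%.

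Most cells held both genes. UMIs of both were present in 83.2% of members in WT, 81.4% in DTR and 57.1% in B6. Rgs5 made up at least 90% of the Rgs5 and Myh11 UMIs of a cell in 49.6% of cells in WT, 68.4% in DTR and 31.9% in B6, and at most 10% in 6.67%, 4.81% and 21.3%. The remaining 43.7%, 26.7% and 46.8% lay between, and 22, 16 and 11 cells were within 2-fold of equal UMIs. For comparison, Rgs5 UMIs were also present in 6.49% of tenocyte-marker cells in WT (median 13152.5 UMIs) and in 26.6% of endothelial-marker cells in B6 (median 9143), and Myh11 UMIs in 0.831% and 1.27% of the same cells. Doublets were not called, so the split is used as a cut by UMIs, and whether it separates populations was not tested. Another 2, 1 and 2 cells had neither gene, entered through Notch3 and fell by the rule into the Myh11 subset.

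**Figure D2:**
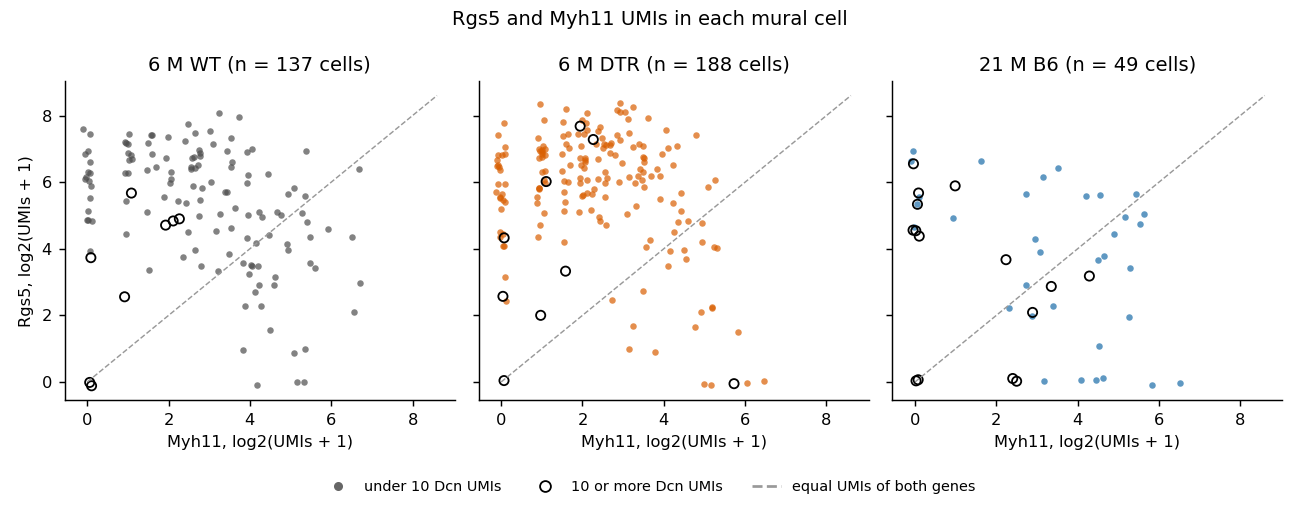
Rgs5 against Myh11 in each mural cell, both as log2(UMIs + 1) with a small random offset so that cells do not hide each other, in 1 panel for each library. Open circles are cells with 10 or more Dcn UMIs and the dashed line marks equal UMIs of both genes. In 6 M DTR 164 of 188 cells have more Rgs5 than Myh11, and 15 of the 49 cells in 21 M B6 are open circles.

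This split used Rgs5 and Myh11 in the same cells, so the contrast is a description without a test. Of 2700 genes with at least 50 CPM in either subset of each library, 72 (2.67%) were more than 2-fold higher in the Myh11 subset in all 3 libraries and 105 (3.89%) in the Rgs5 subset. In the contractile apparatus list, 7 of 24 such genes were higher in the Myh11 subset and none in the Rgs5 subset. They were Cnn1, Smtn, Tpm2, Pln, Flna, Pcp4l1 and Myl6.

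Pln, which encodes phospholamban, the brake on the calcium pump of the sarcoplasmic reticulum, had the largest ratio. It stood at 243 CPM in the Myh11 subset and 10.7 in the Rgs5 subset of WT, at 420 and 20.6 in DTR, and at 55.8 and 3.48 in B6, ratios of 22.6, 20.4 and 16.0. The B6 value in the Rgs5 subset is 1 UMI, so the last ratio has a counting interval of 2.47 to 675. Every library showed the same order. Myl6, whose promoter holds a CArG box, was 4473 against 1882 CPM in WT, 4215 against 1537 in DTR and 3370 against 1252 in B6. Cnn1 (calponin) was 139 against 32.2 CPM in WT, 124 against 6.19 in DTR and 55.8 against 13.9 in B6. Among the rule's own genes, Acta2 was 3.29, 3.98 and 3.52 times and Myl9 2.80, 2.84 and 3.24 times higher in the Myh11 subset.

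The other leading genes of the Myh11 subset were Rbm24, a splicing regulator of muscle, Rgs7bp, which anchors RGS proteins at the membrane, Sorbs2, an adaptor of actin structures, Itga8, an integrin of smooth muscle, the diacylglycerol kinase Dgkg, and Usp37, Vps37b, Man1b1, Cdk11b and Nrip3. Their ratios in single libraries ranged from 2.07 for Usp37 in WT to 11.6 for Itga8 in DTR. Each of these 10 genes had a larger ratio in DTR than in WT.

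Genes of the Rgs5 subset were often nearly absent from the other. Abcc9, the sulfonylurea receptor subunit of the ATP-sensitive potassium channel, was 482 CPM in the Rgs5 subset of WT, 325 in DTR and 226 in B6, against 5.66 in the Myh11 subset of WT and no UMI there in DTR and B6. A count of 0 in the Myh11 subset allows up to 3 UMIs, or 8.48 CPM in WT, 12.4 in DTR and 11.2 in B6. Its pore partner Kcnj8 was 226, 274 and 48.7 CPM in the Rgs5 subset and 0, 4.12 and 3.72 in the Myh11 subset. The Myh11 subset thus held at most 2 UMIs of either channel gene in each library.

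Ccl11, the eosinophil chemokine eotaxin, was 1159 CPM in the Rgs5 subset of WT, 1454 in DTR and 1051 in B6, against 2.83, 0 and 29.8 in the Myh11 subset. Mgp, an inhibitor of calcification, was 2776, 4117 and 1242 CPM against 48.1, 53.6 and 152. Vtn (vitronectin), the signalling regulator Rgs16, the VEGF receptor Flt1, the interferon-induced Ifitm1, the metabolic enzymes Nnmt and Cyp4b1, Tnfsf9, a ligand of the TNF family, and Lin7a were also among the leading genes. Flt1 was higher in endothelial-marker cells, at 1109, 759 and 607 CPM against 174, 265 and 136 in the Rgs5 subset. Tnfsf9 was higher in macrophage-marker cells, at 1007, 702 and 264 CPM against 83.5, 111.5 and 184. Whether RNA of other cells contributed was not tested. In an inflammatory list, 10 of 23 genes were higher in the Rgs5 subset and none in the Myh11 subset, beside 3.89% and 2.67% of all genes, among them Cxcl1 at 6536 against 1320 CPM in WT and Cxcl10 at 532 against 42.4. The matrix genes Dcn, Mgp, Tnc and Col6a1 were also higher in the Rgs5 subset, and Dcn there moves with the cells rich in fibroblast RNA.

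**Figure D3:**
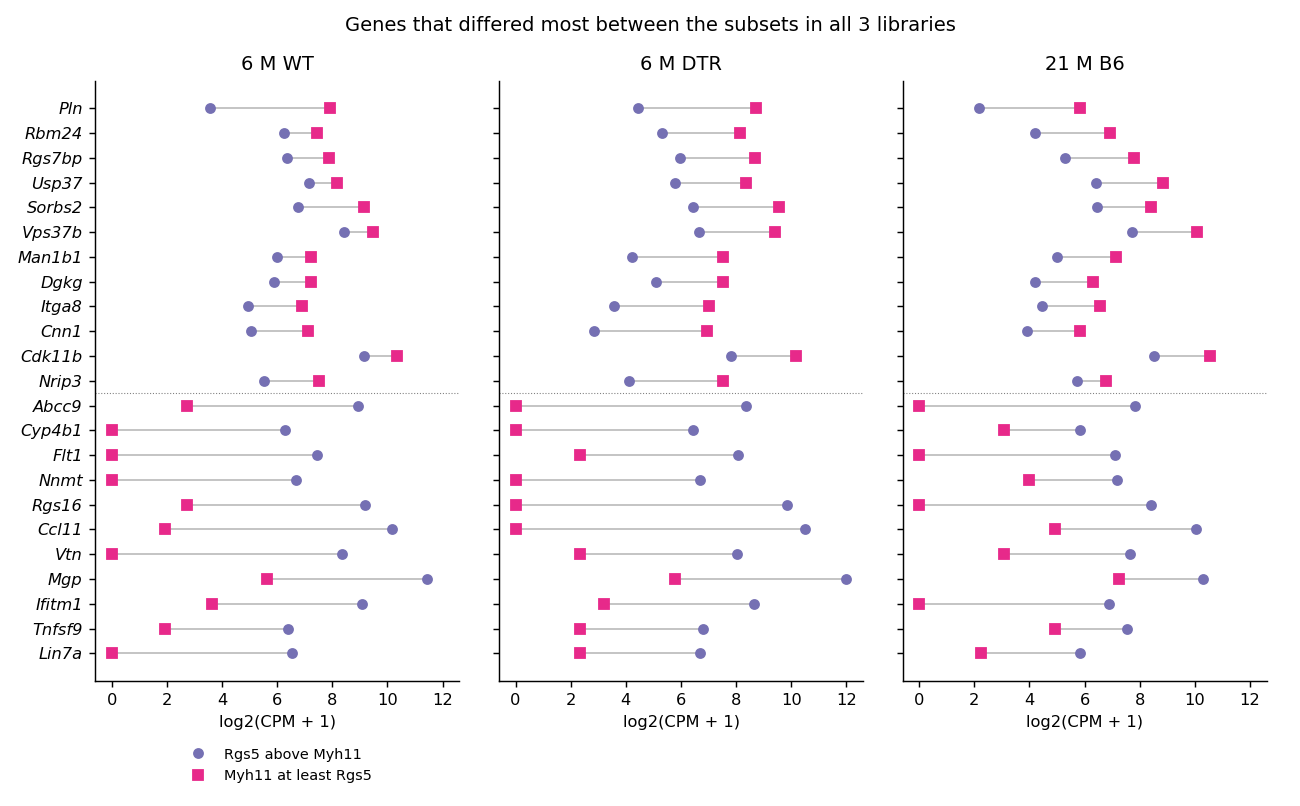
Levels of the named genes with the largest differences in each direction between the Rgs5 subset (circles) and the Myh11 subset (squares), as log2(CPM + 1) of summed cells, in 1 panel for each library. Above the dotted line the squares lie to the right in every library, and below it the circles do; Abcc9 reaches 482 CPM in the Rgs5 subset of 6 M WT.

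Against all other kept cells, 164 of 2332 genes (7.03%) were more than 4-fold higher in mural cells in each of the 3 libraries. The cells were chosen by their counts, so this too is a description. Genes of the rule and genes under 50 CPM in mural cells of any library were left out of the ranking. The 20 largest remaining ratios, ranked by the smallest of the 3, began with the actin nucleator Lmod1 at 172 CPM in WT, 198 in DTR and 162 in B6, at least 182-fold above the other cells in each. They included the receptors Avpr1a for vasopressin, S1pr3 for sphingosine 1-phosphate, Npy1r for neuropeptide Y and Ednra for endothelin. Of a list of 26 vasoactive receptors 5 had enough UMIs for this comparison, and 4 of these 5 were past 4-fold, beside 7.03% of all genes. Both subunits of soluble guanylate cyclase were there, Gucy1a1 at 390, 407 and 257 CPM and Gucy1b1 at 214, 191 and 95.3, together with Mrvi1, the substrate of cyclic GMP-dependent kinase on the calcium store. Nrarp, a Notch target that feeds back on the pathway, stood at 562, 236 and 494 CPM against 1.79, 2.35 and 3.97 in other cells. The hormone gene Cck, the potassium channel subunit Kcne4, the sodium pump subunit Atp1b2, the amine oxidase Aoc3, the small GTPase Rasd1, the signalling regulator Rgs4, the LIM protein Pdlim3, the kinase Dgkb, the calcium-binding protein Cabp1, Pcp4l1 and Rbm24 made up the rest.

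Between libraries, a gene was called when its ratio passed 2-fold with at least 50 CPM in either library and the exact interval of the ratio excluded 1. That interval covers counting error only. Of 3405 genes, 77 (2.26%) were higher in 6 M DTR and 79 (2.32%) were higher in 6 M WT, here called lower in DTR, and the median log2 ratio was -0.02. Of 3313 genes, 170 (5.13%) were higher and 288 (8.69%) lower in 21 M B6 than in 6 M WT, with a median of -0.27. Scaling by TMM (trimmed mean of M values) moved that median by 0.25 to -0.02 and turned the B6 calls to 262 higher and 120 lower, so directions in B6 are read relative to that median. For DTR the TMM counts were 69 and 87. Both comparisons share the 6 M WT library.

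Several pericyte genes were lower in the members of the 21 M B6 library, and fewer without the endothelial limit. Of 15 pericyte identity genes with enough UMIs, 9 were more than 2-fold lower and none higher in B6, beside a background of 8.69% of all genes, with a median log2 ratio of -1.10 beside -0.27. The list also contains genes of the Rgs5 subset, which held 24 of the 49 members in B6. Within the Rgs5 subset alone 7 of 14 were lower (median -0.99), beside 15.2% of all genes there. Under TMM 5 of 14 were lower (median -0.87), beside 3.57%, and among members under 10 Dcn UMIs 5 of 16 (median -0.50), beside 9.37%. When cells were thinned to 5000 UMIs before the rule, 3 of 16 were lower and 1 was higher (median -0.49), beside 8.08% and 3.26%. The members of B6 lack the 76 barcodes above the endothelial limit, which were rich in Rgs5. With that limit dropped, 3 of 14 genes, Pdgfrb, Rgs4 and Steap4, were lower in B6 (median -0.64), beside 4.98% of all genes and a median of -0.22. In the same setting 4 of 15 endothelial markers were higher, beside 5.31% of all genes. In DTR against WT, 1 of 16 was higher and none lower, beside 2.26% and 2.32%, with a median of -0.04.

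Kcnj8 had 159 CPM in WT, 235 in DTR and 27.0 in B6, a ratio of 0.170 between B6 and WT (interval 0.0933 to 0.288). B6 was the low library. The log2 ratio was -2.56 over all members, -2.21 within the Rgs5 subset and -2.51 under 10 Dcn UMIs. Higd1b, a mitochondrial protein typical of pericytes, had 201, 382 and 44.9 CPM, and its B6 log2 ratio was -2.16, -1.87 and -2.45 in the same 3 settings. Pdgfrb, the receptor that recruits pericytes, had 368, 458 and 137 CPM, with log2 ratios of -1.43, -1.78 and -0.94. Abcc9 had 341, 279 and 117 CPM, with -1.54, -1.09 and -1.18. Under 10 Dcn UMIs Kcnj8, Higd1b and Abcc9 were still more than 2-fold below WT, and Pdgfrb was not. Without the endothelial limit these genes exchanged places: Kcnj8 (-0.43), Higd1b (-0.98) and Abcc9 (-0.17) did not reach 2-fold, and Pdgfrb (-1.07) did. Vtn, which was lower in the members, then had a log2 ratio of 0.60.

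The remaining genes of the list were less far apart or less stable. Steap4, a metalloreductase, had 946, 1078 and 396 CPM, Rgs4 418, 311 and 182, Mcam 280, 297 and 135, Vtn 227, 224 and 106, and the connexin Gja4 99.9, 96.1 and 44.9, all called lower in B6. Under 10 Dcn UMIs the log2 ratios of Steap4 and Rgs4 were -1.06 and -1.13, and those of Mcam and Vtn, at -0.49 and -0.91, did not reach 2-fold. Ebf1, a transcription factor of the lineage, had 662, 860 and 509 CPM, and Cox4i2 175, 124 and 171, and neither passed 2-fold in either comparison. Of the genes that selected the cells, whose levels are a description, Notch3 was at 725, 767 and 340 CPM and Acta2 at 5402, 4014 and 3856.

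**Figure D4:**
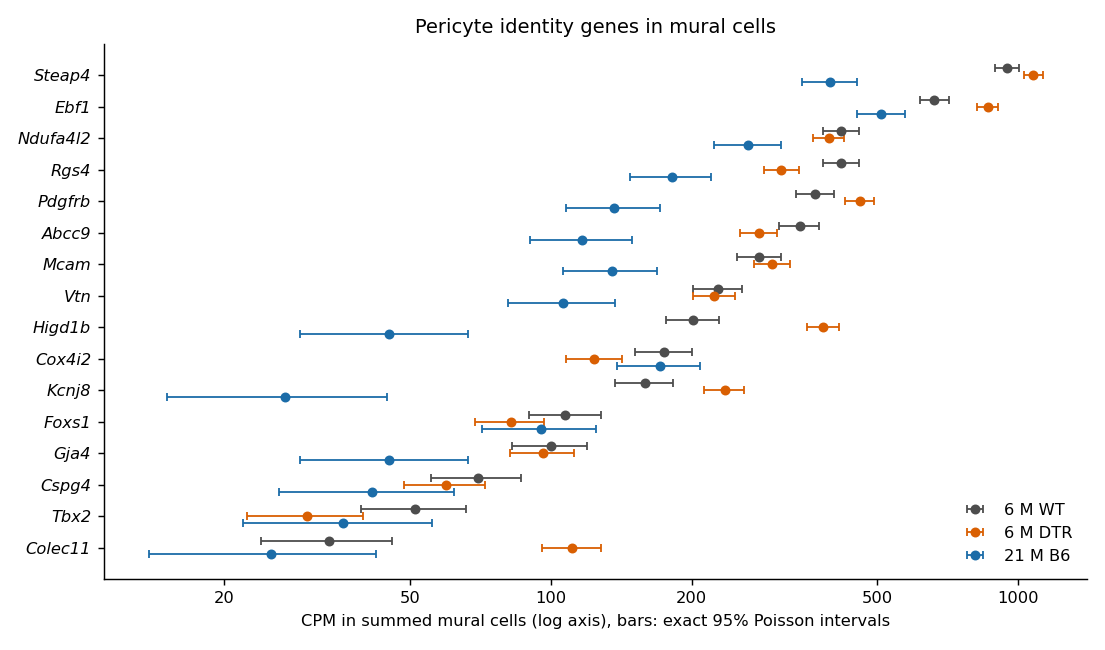
Levels of the 16 pericyte identity genes that reached 50 CPM in at least 1 library, as CPM of summed mural cells on a log axis, with exact 95% Poisson intervals as bars. The 21 M B6 points lie left of both 6-month libraries for Pdgfrb, Abcc9, Higd1b and Kcnj8, the last at 27.0 CPM, while Colec11 stands apart in 6 M DTR at 111 CPM.

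Contractile genes were called lower about as often as all genes over all members. Of 25 contractile apparatus genes, none was higher and 1, Cnn1, was lower in DTR, beside a background of 2.32%, at 63.8 CPM in WT, 23.0 in DTR and 34.2 in B6. The list's median log2 ratio was -0.24 in DTR and -0.37 in B6, beside -0.02 and -0.27 over all genes. In B6, Pln (79.7, 77.8 and 28.8 CPM) and the GTPase Rasl12 (80.6, 57.2 and 30.6) were lower, 2 of 25 beside a background of 8.69%, and without the cells at 10 or more Dcn UMIs none of 25 was called and the median was 0.13. With the endothelial limit dropped 4 of 24 were lower (median -0.80), beside 4.98%. At a mitochondrial limit of 5%, which left 9 mural cells in B6, 17 of 21 were lower with a median of -1.95, beside 24.6% of all genes and 12 of 16 pericyte identity genes (median -1.68). Within the Myh11 subset alone 1 of 26 was lower in DTR (median 0.02) and 4 in B6 (median -0.39), beside 2.98% and 8.37% of all genes. Within the Rgs5 subset alone 8 of 22 were lower in B6 (median -0.64), beside 15.2% of all genes. Myl6, the most abundant of the list, had 2651, 1920 and 2276 CPM, and Tpm2, a tropomyosin, 1803, 1147 and 1375.

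Some receptors and channels were also lower in B6. Ednrb, an endothelin receptor, had 523 CPM in WT, 581 in DTR and 128 in B6, and Ednra 223, 280 and 91.7. These 2 and the prostacyclin receptor Ptgir were the 3 of 6 vasoactive receptors called lower in B6, beside a background of 8.69%, and the median was -0.97 beside -0.27. In DTR none of 7 was called. Under 10 Dcn UMIs 2 of 7, Ednrb and Ptgir, were lower in B6, beside 9.37%, and Ednrb was at a log2 ratio of -1.28. The 3 and Avpr1a, 4 of 7, were lower without the endothelial limit, beside 4.98%. Of 7 channel genes, the L-type calcium channel Cacna1c (75.5, 72.5 and 28.8 CPM) and the chloride channel Ano1 (159, 134 and 75.5) were lower in B6, beside 8.69%, and under 10 Dcn UMIs none of 8 was lower and 1, Cacna1h, was higher. In DTR 1 of 8 channel genes was higher and 1 lower, beside 2.26% and 2.32%: the cation channel Trpc6 (21.8, 62.5 and 7.19 CPM) and Trpv2 (72.2, 33.0 and 37.8). The DTR log2 ratio of Trpc6 was 1.52 over all members and -1.04 in the Myh11 subset, on 2 and 6 UMIs there. Of 14 cyclic GMP genes, none was called in DTR (median -0.02). In B6, Gucy1a2 and Gucy1b1 were lower, 2 of 14 beside 8.69% (median -0.46), and neither was called under TMM or under 10 Dcn UMIs. Within the Rgs5 subset alone, 6 of 14 were lower in B6 (median -0.97), beside 15.2% of all genes. At a mitochondrial limit of 5%, which left 9 mural cells in B6, 11 of 13 were lower (median -2.22), beside 24.6%.

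Notch3 of the mural cell receives ligands of its neighbours, and Nrarp, Nrip2 and the Hes and Hey genes are read as part of the pathway. None of 8 pathway genes was called between B6 and WT, beside 5.13% higher and 8.69% lower of all genes, a difference too small to read at this list size. Among members under 10 Dcn UMIs none of 9 was called. In DTR 2 of 8 were lower and none higher, beside 2.32% and 2.26%. Nrarp was at 562, 236 and 494 CPM in WT, DTR and B6. The lower genes of DTR were Nrarp, with a ratio of 0.420 (0.370 to 0.476), and Nrip2, at 73.0, 28.3 and 62.9 CPM. Nrarp belongs to the genes that were higher in the Myh11 subset, and its DTR log2 ratio was -1.48 in the Rgs5 subset, -0.24 in the Myh11 subset, -0.59 in female cells and -2.20 in male cells. The target Hes1 had 423, 559 and 715 CPM, the ligand Jag1 126, 169 and 104, and Heyl 89.0, 67.2 and 46.7. Of the other ligands, Dll4 was at 0.839, 0 and 1.80 CPM, and the receptor Notch1 at 66.3, 34.8 and 57.5.

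Some matrix genes were higher in DTR. Of 22 fibrillar matrix genes, 5 were more than 2-fold higher and none lower, beside a background of 2.26%, and the median was 0.83 beside -0.02. They were Fn1, Tnc, Col12a1, Mfap5 and Lum. Epitenon markers moved with them: of the list of 9, which summed to 275 CPM in WT and 865 in DTR, 4 had enough UMIs and all 4 were higher in DTR (median 2.1), and their part in the matrix values was not tested. Under 10 Dcn UMIs 4 of 20 were higher (median 0.80), beside 2.1%, and in the Rgs5 subset 5 were higher and 1 lower of 22 (median 0.63), beside 2.12% and 3.2%. When cells were thinned to 5000 UMIs before the rule 3 were higher and 2 lower of 21, beside 3.4% and 3.06%. Sex moved with it: among female cells 2 were higher and 2 lower of 21, beside 2.73% and 3.9% of all genes, and among male cells 17 were higher of 22, beside 8.36%, with WT contributing 28 male cells. Tnc (tenascin C) had 79.7 CPM in WT, 268 in DTR and 68.3 in B6, a ratio of 3.37 (2.69 to 4.24), and a log2 ratio of 1.19 in female and 3.40 in male cells. Other kept cells also had more Tnc in DTR, 52.1 against 14.7 CPM. Mgp was 1966, 3535 and 715 CPM, and Col3a1 635, 1229 and 735.

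In B6 the direction of the matrix genes depended on the Dcn-rich cells. Of 24 genes 11 were higher and 2, Postn and Mgp, lower (median 0.82), beside backgrounds of 5.13% and 8.69% and a median of -0.27 over all genes. The higher genes were the collagens Col1a1, Col1a2 and Col8a1, the glycoproteins Fn1, Fbln5, Fbn1 and Mfap5, the crosslinking enzyme Loxl1, and the proteoglycans Dcn, Lum and Bgn. Without the cells at 10 or more Dcn UMIs none of 19 was higher and 8 were lower (median -0.91), beside 2.2% and 9.37% of all genes and a median of -0.21. When cells were thinned to 5000 UMIs before the rule none of 20 was higher and 5 were lower, beside 3.26% and 8.08%. Of 20 genes tested without the endothelial limit, Fn1 and Dcn were higher and 4 were lower, beside 5.31% and 4.98%. Fn1 (fibronectin) had 203, 778 and 1981 CPM, and its B6 log2 ratio went from 3.29 to -0.91 without those cells. Its DTR log2 ratio went from 1.94 to 0.19. Col3a1 went from 0.21 to -2.79 in B6. Periostin (Postn) was low in B6 either way, at 98.2, 132 and 16.2 CPM and log2 ratios of -2.60 and -2.01, on 9 UMIs in B6.

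No gene of 22 in the inflammatory list was more than 4-fold above other kept cells in all 3 libraries, beside 7.03% of all genes, a difference too small to read at this list size. The list summed to 21080, 32930 and 24780 CPM against 23310, 22220 and 26140 in other cells. Il6 had 3665 CPM in WT, 3907 in DTR and 2402 in B6, against 192, 107 and 684 in other kept cells. Of 25 inflammatory genes 6 were higher in DTR and none lower, beside a background of 2.26% and with a median of 0.17: the chemokines Cxcl1, Cxcl2, Cxcl5, Ccl2 and Ccl7 and the hyaluronan synthase Has2. Cxcl1 had 4988, 10900 and 5294 CPM, and Ccl2 2367, 6235 and 2878. In other kept cells Cxcl1 was at 4757, 4980 and 5383 CPM and Ccl2 at 4156, 3097 and 3861, so neither was higher there in DTR by more than 1.05-fold. In the Rgs5 subset alone 4 of 25 genes were higher in DTR, beside 2.12% of all genes, and 3 were higher and 2 lower of 24 in female cells, beside 2.73% and 3.9%. Ccl2 had 19.7% of its WT mural UMIs in 1 cell.

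In B6, 7 of 26 inflammatory genes were higher, beside a background of 5.13%: the chemokines Ccl7 and Cxcl12, complement C3, the prostaglandin synthase Ptgs2, Has1, Has2 and Tnfaip6. Has1, a hyaluronan synthase, had 42.0, 82.6 and 1084 CPM, and Tnfaip6, which cross-links hyaluronan, 122, 212 and 1147. Both were also high in the other kept cells of B6, at 1784 and 1366 CPM, and under 10 Dcn UMIs 2 of 25 genes of the list, Ptgs2 and Has1, were higher and 1, Ccl2, was lower in B6, beside 2.2% and 9.37%. Dropping the endothelial limit left 6 of 26 higher and 4 lower, beside 5.31% and 4.98%. In the Myh11 subset alone 11 of 22 were higher (median 1.04), beside 5.67% of all genes. In the Rgs5 subset alone 8 of 26 were higher (median 0.23), beside 7.64%. At a mitochondrial limit of 5%, 8 of 26 were higher and 8 lower, beside 12.3% and 24.6%.

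Some heat shock genes were higher in B6. Of 15 genes 7 were higher and none lower, beside a background of 5.13%, with a median of 0.71. They were Hspa1a, Hspa1b, Hsp90aa1, Hspb1, Hspb8, Dnaja1 and Hsph1. The inducible chaperone Hspa1a had 165 CPM in WT, 159 in DTR and 1239 in B6, a ratio of 7.53 (6.42 to 8.87), and Hspa1b had 158, 129 and 1080. B6 was high and the 6-month libraries were close to each other. The other kept cells showed the same, with Hspa1a at 99.5, 124 and 906 CPM. The subsets differed: in the Rgs5 subset alone 9 of 15 were higher in B6 (median 1.18), beside 7.64% of all genes. In the Myh11 subset alone 2 of 14 were higher and 1 lower (median 0.265), beside 5.67% and 8.37%. Hspa1a was 190 CPM in WT and 2063 in B6 in the Rgs5 subset, and 105 and 357 in the Myh11 subset. This difference between the subsets was not tested. Under 10 Dcn UMIs 4 of 14 were higher, beside 2.2% of all genes, and without the endothelial limit 6 of 15, beside 5.31%. The Hspa1a log2 ratio was 1.90 and 2.63 in these settings beside 2.91, and 1 cell held 18.9% of its B6 UMIs. The top 5 cells of B6 held 62.55% of the Hspa1a UMIs. Hspa1a UMIs were present in 67.35% of members in B6 and in 63.5% in WT, so the share of cells with the gene was similar. Immediate early genes, of which Junb led at 3651, 3332 and 4632 CPM, had 2 of 19 higher in B6 (Fosl1 and Klf2), beside 5.13%, and none called in DTR. Neither was called under 10 Dcn UMIs, where 1 of 19, Klf6, was lower.

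**Figure D5:**
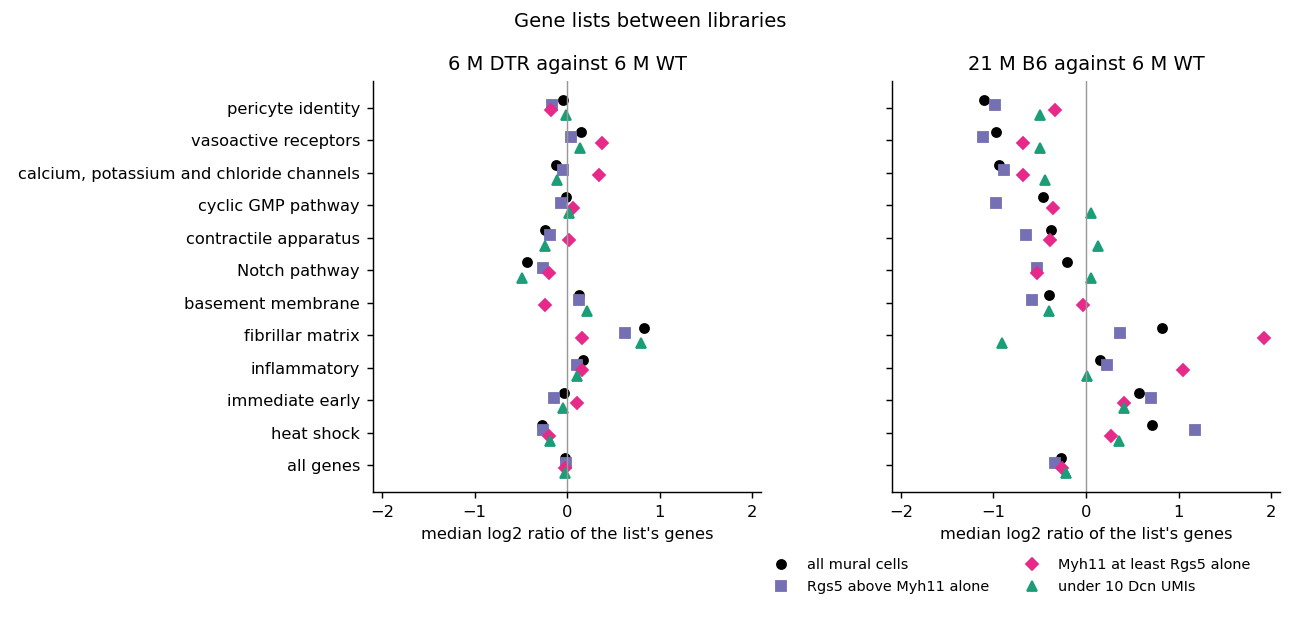
Median log2 ratio of the genes of 11 lists and of all genes tested, for 6 M DTR against 6 M WT (left) and 21 M B6 against 6 M WT (right), over all mural cells, over each subset alone and over cells with under 10 Dcn UMIs. In 21 M B6 the fibrillar matrix list moves from 0.82 to -0.91 without the cells rich in Dcn, while pericyte identity stays below 0 at -1.10 and -0.50.

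Named by size, the genes furthest apart in DTR were those of haemoglobin, which belong to red cells. Their 4 genes summed to 646 CPM in WT, 12670 in DTR and 32.4 in B6. In DTR 1 cell held 12864 of 21492 haemoglobin UMIs and 5 cells held 97.4%, and among male cells the direction turned, with a Hbb-bs log2 ratio of -2.47 in place of 4.41. Next came Lif, a cytokine, at 8.39, 76.7 and 3.60 CPM, which rested on 10 UMIs in WT and had a log2 ratio of -0.21 in female cells.

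The genes that followed were spread over more cells. Fst (follistatin, which binds activins) had 144 CPM in WT, 720 in DTR and 19.8 in B6, ratios of 5.02 (4.27 to 5.92) and 0.138 (0.0675 to 0.253) to WT. DTR was the highest and B6 the lowest library. Its DTR log2 ratio was 2.04 in the Rgs5 subset, 2.40 in female and 2.58 in male cells. Cyp26b1, which degrades retinoic acid, followed the same order at 78.1, 281 and 16.2 CPM, with 36.6% of its WT UMIs in 1 cell. The adrenergic receptor Adra2a had 32.7, 114 and 8.99 CPM and the collectin Colec11 33.6, 111 and 25.2. Gpm6b, a membrane proteolipid, had a ratio of 2.95 between DTR and WT.

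Genes lower in DTR included some with higher levels in the Myh11 subset. The nucleolar factor Abt1 had 384, 125 and 352 CPM in WT, DTR and B6, the ribonucleotide reductase subunit Rrm1 270, 97.3 and 289, and the inositol kinase Itpk1 108, 40.7 and 75.5. Within the Myh11 subset their DTR log2 ratios were 0.14, -0.01 and 0.41, and within the Rgs5 subset -2.46, -2.22 and -2.81. The ratios thus lay near 1 in the Myh11 subset and far below it in the Rgs5 subset, and the difference between the subsets was not tested. Zdbf2 had 65.5, 10.6 and 19.8 CPM, and Map9, a microtubule protein with 51.5% of its WT UMIs in 1 cell, 57.1, 9.44 and 14.4. The T-type calcium channel Cacna1g, the cyclin Ccnd3, the clock gene Cry1, the RNase P subunit Pop4 and Rusc1 completed the list with ratios from 0.299 to 0.376. Without the demand that mural cells be no lower than other cells, the tenocyte gene Coch (117, 17.1 and 25.2 CPM) and Mmp3, with 82.6% of its WT UMIs in 1 cell, were also named.

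In B6, several of the highest ratios sat in few cells. Of 168 genes called higher that had UMIs in at least 10% of B6 members, 139 were below the level of the other kept cells of B6. Gdf10, a BMP family ligand, had no UMI in WT, which allows up to 2.52 CPM, and 64.7 CPM in B6, and Tac1, the precursor of substance P, had 0.839 and 120 CPM, with 41.7% and 46.3% of their B6 UMIs in 1 cell. The collagen gene Col8a1, with 84.2% in 1 cell, and Olfm1 turned direction under 10 Dcn UMIs, at log2 ratios of -1.32 and -0.64. S100b, the sphingosine kinase Sphk1, the cytokine inhibitor Socs1, Abhd2, the interferon regulator Irf7 and the chaperone Hspb1 stood at ratios from 2.78 for Irf7 to 19.3 for S100b. Of the B6 UMIs of S100b, 44.4% were in 1 cell. Efemp1 and Ifi205, named without the demand on other cells, were at 80.9 and 261 CPM in B6 and at 0 and 1.68 in WT, with 35.6% and 57.9% of their B6 UMIs in 1 cell.

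Several of the genes lowest in B6 were also those of the Rgs5 subset. The hormone Stc1 had 85.6, 58.4 and 1.80 CPM, the last from 1 UMI, a ratio of 0.0210 (0.000527 to 0.120). Its 102 UMIs in WT came from 14 cells, and 1 cell held 27.5% of them. Endothelial-marker cells had more Stc1 than mural cells, at 351.7, 139.5 and 56.1 CPM, and the source of the mural UMIs was not tested. The 1 UMI in B6 lay in the Myh11 subset. Ifitm1 had 384, 347 and 61.1 CPM, a ratio of 0.159 (0.109 to 0.226), and log2 ratios of -2.19 in the Rgs5 subset and -2.16 under 10 Dcn UMIs. Without the endothelial limit the log2 ratios were -1.14 for Stc1, -1.89 for Ifitm1 and -0.82 for Fst, and that of Gbp5 turned to 0.12. The cytokine inhibitor Socs5, the protease Adamts12, the histone methyltransferase Kmt5b, the Ras regulator Nf1, the interferon-induced Gbp5 and Arhgap42, which activates GTP hydrolysis, had between 7.19 and 19.8 CPM in B6 and between 52.0 and 93.2 in WT, and log2 ratios from -2.75 for Nf1 to -1.66 for Adamts12 under 10 Dcn UMIs. The bone matrix gene Spp1, named without the demand on other cells, had 131 CPM in WT, with 63.5% in 1 cell, and 3.60 in B6. It was at 3506, 5423 and 719 CPM in tenocyte-marker cells and at 262, 987 and 46.9 in macrophage-marker cells.

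None of 13 endoplasmic reticulum stress genes was called in either comparison, and the lists of basement membrane, senescence and cell cycle, and contractile gene regulators had at most 1 call in either. Col18a1 was the basement membrane gene higher in DTR, at 93.2, 194 and 62.9 CPM, and the inhibitor Cdkn1c the cell cycle gene lower there, at 159, 71.9 and 86.3. In B6 under 10 Dcn UMIs the basement membrane genes Nid1 and Sparc (2 of 10) and the cell cycle gene Mdm2 (1 of 12) were lower, beside 9.37%. For the lists that follow, 2.26% of all genes were higher and 2.32% lower in DTR, and 5.13% and 8.69% in B6. Angpt2, which loosens pericyte contact with endothelium, was the 1 of 5 angiopoietin and VEGF genes higher in DTR, at 24.3, 69.0 and 25.2 CPM, and Nrp1 the 1 of 4 lower in B6, at 158, 201 and 70.1. Both Nrp1 and Nrp2 were lower under 10 Dcn UMIs, 2 of 4. In the TGF-beta and BMP list, Inhba (30.2, 101 and 30.6 CPM) and Id4 (334, 669 and 149) were higher in DTR and Id4 was lower in B6, out of 22 and 20 genes, and under 10 Dcn UMIs 2 of 21 were lower in B6, Tgfbr1 and Ltbp4. Of 10 integrins, Itga1 (317, 413 and 111 CPM) and Itga7 (133, 118 and 53.9) were lower in B6, and none of 9 was called under 10 Dcn UMIs. Of 6 circadian clock genes, Cry1 and Nr1d2 (117, 135 and 55.7 CPM) were lower in B6, with a median of -0.83, and under 10 Dcn UMIs 1 of 6, Nr1d1, was lower. Of 10 antioxidant genes, the metallothioneins Mt1 (4955, 3793 and 10610 CPM) and Mt2 (1263, 645 and 3609) were higher in B6, as they were under 10 Dcn UMIs, where Hmox1 was lower, 2 and 1 of 9. Of 13 glycolysis and hypoxia genes, the hexokinase Hk2 (42.8, 122 and 444 CPM) and Ndrg1 (130, 191 and 570) were higher and the glucose transporter Slc2a3 (70.5, 56.6 and 32.4) lower in B6, and Hk2 was also higher in DTR. None of 13 was higher in B6 under 10 Dcn UMIs, and Slc2a3 was lower. In DTR, Itga8 was the 1 of 9 integrins lower (56.2, 27.7 and 55.7 CPM), Cry1 the 1 of 7 clock genes lower, and of 11 antioxidant genes Slc7a11 (20.1, 51.9 and 3.60) was higher and Gpx3 (183, 80.2 and 266) lower. Of 11 interferon response genes, Irf7 (22.7, 15.3 and 62.9 CPM) was higher and Gbp5 lower in B6, and under 10 Dcn UMIs Isg15 was higher and Gbp2 and Gbp5 were lower, 1 and 2 of 10. Without the endothelial limit 10 of 22 interferon response genes were higher, beside 5.31%, where 4 of 15 endothelial markers were also higher in B6.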

How the data were processed

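The 3 Chromium 3′ v3 libraries of mouse FDL tendon, 1 for each group were analysed. The deposited matrices hold counts of UMIs for 32285 genes and each barcode, made by the authors with Cell Ranger (6.0.1 in the file headers, 2.1.1 in the submitters' processing notes); the genome build is not given in the sources used here. Kept barcodes had 1000 to 5000 genes and at most 10% mitochondrial UMIs, which left 19709 of 43908. Doublets were not called. UMIs were summed over the members of a library and scaled to CPM. With 1 library per group no test was run: shares have exact binomial, levels exact Poisson and ratios exact conditional 95% intervals, all covering counting error only. Zero counts were read against 3 UMIs.

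Genes were named by size of the ratio: the 12 largest each way among genes past the fold, with UMIs in at least 10% of members of the higher library and, in mural cells, a level no lower than in other kept cells (3 more without that demand), and the 20 above other cells. The members and gene lists were chosen with earlier results of these data known. Depth was 1191575, 1695830 and 556313 mural UMIs. Alternatives used edgeR 4.0.16 (TMM), Python 3.11.15 and scipy 1.17.1. A few named genes are not reported here.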

Additional observations from a re-analysis of the deposited data

Results flagged for a closer look

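Barcodes above the limit of 10% mitochondrial UMIs were left out of every comparison, and some of them met the mural rule otherwise. They numbered 26 of 152 such barcodes in 6 M WT (17.1%), 16 of 240 in 6 M DTR (6.67%) and 55 of 808 in 21 M B6 (6.81%), so that 21 M B6 had more of them than the 49 members it kept.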

How the results depend on the processing

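No paired analysis was possible because each group was 1 library. Shares of mural cells in WT, DTR and B6 were 0.559%, 1.39% and 0.388% at a mitochondrial limit of 5%, 1.30%, 2.18% and 0.709% under stricter limits on other cell types, and 2.48%, 4.04% and 2.48% with no contractile minimum. With no endothelial limit they were 2.03% in WT and 2.56% in B6, and under 10 Dcn UMIs 0.709% in B6. The share of B6 cells with Rgs5 above Myh11 was 77.8%, 77.2% and 66.4% at the 5% limit, with no endothelial limit and with no contractile minimum. The 3 alternatives on Dcn, the endothelial limit and the contractile minimum were chosen after seeing the data.

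Against 156 genes past 2-fold between DTR and WT, there were 301 at the 5% limit, 397 at 20 CPM and 597 in male cells. Against 458 between B6 and WT, there were 1315, 946 at 20 CPM and 776 in the Rgs5 subset. Against 177 between the subsets, there were 117 with no upper gene limit, 306 when split at 2-fold and 312 at 20 CPM. Against 164 above other cells, there were 42 at the 5% limit and 251 at 20 CPM. Of the log2 ratios of named genes under an alternative, 670 stayed within their mark, 190 moved and 14 reversed. For ratios between libraries the mark was the counting interval. For ratios between subsets it was the spread over the 3 libraries, which is wide for genes with 0 UMIs in a subset. Col8a1 in B6 reached -1.0 when thinned, -0.76 in female cells and -1.32 under 10 Dcn UMIs, where Olfm1 was -0.64. In the Myh11 subset, DTR ratios were -1.04 for Trpc6, 0.14 for Abt1 and 0.41 for Itpk1, and the B6 ratio of Cyp26b1 was 0.98. Without the endothelial limit the B6 ratio of Gbp5 was 0.12. In DTR, Lif was -0.21 in female cells, and in male cells Hbb-bt was -2.87, Hbb-bs -2.47, Hba-a1 -3.50 and Hba-a2 -3.38. The cause was not tested. Depth limits 21 M B6 most: a gene with no UMI there may reach 5.39 CPM.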
